A study of Mus musculus with 23 samples.

Results

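Gene expression was compared between 2 classes of mouse embryonic stem (ES) cell lines that had received the same activator plasmid, SRF-VP16. The first class held lines E81 and E100, labelled -/-, and the second, called SRF-containing here, held line E99, labelled +/-, and wild-type line E14. The 8 SRF-VP16 arrays, 4 of each class and 2 of each line, were taken by plasmid and line from the 23 arrays of the series. The other 15 arrays carried the control plasmid SRFdM-VP16 or an empty vector in the same 4 lines, and were used to set each difference beside that without the activator. Total RNA was taken 72 hours after transfection in every group, and each group held 2 arrays except E100 with vector, which held 1. All 4 lines were transfected, and the share of cells that took up plasmid is not given in the labels. The labels name no gene behind +/- and -/-, and ES lines with these names are known to carry targeted alleles of the gene for serum response factor (SRF). Nothing in the labels says that the 2 arrays of a group came from separate cultures, so every p-value rests on array-to-array spread that may be technical, and the classes rest on 2 lines each.

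SRF is a transcription factor of the MADS-box family that binds a short palindrome called the CArG box as a dimer. It works with partners of the myocardin family at genes of actin and of muscle, and with ternary complex factors at immediate-early genes, which respond within minutes to growth signals. ES cells without SRF are known to have a poor actin cytoskeleton and poor adhesion. Joined to the activation domain of the viral protein VP16, SRF activates such genes without needing those partners. What each class reached with this activator was measured here, with no control level subtracted.

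Intensities are on the linear scale of the deposited table, where 40% of all values lie at or under 58, and this value served as a floor ahead of the log2 step. Differences are -/- minus SRF-containing on that log2 scale, given with the standard error (SE), and a call is an adjusted p under 0.05 in a limma fit over all 23 arrays. Under SRF-VP16, 120 of 9643 probe sets were called, which is 1.24%. Of these, 101 were higher in the -/- lines and 19 were lower, and 1207 had an unadjusted p under 0.05. By gene, with 1 probe set each, 81 of 6813 (1.19%) were called higher and 15 (0.22%) lower, and the median difference of all genes was 0.06. The 4 -/- arrays lay above all 4 SRF-containing arrays for 354 of these genes (5.2%), and below them for 84 (1.23%). The split moved with the scaling, to 91 higher and 64 lower after quantile normalization and to 57 higher and 15 lower after division by the array median. With the 2 lines of each class as the units, by their means, 0 were called by limma and 1159 had an unadjusted p under 0.05.

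Some arrays stood apart. The E14 arrays numbered 2 with SRFdM-VP16 and with vector read high for smooth-muscle, keratin and growth-factor genes that were far lower on the other control arrays (Acta2 at 7302 and 7463, and below the floor on the other 13), and the E14 SRF-VP16 array 1 was high for several of the same genes. Without both E14 control arrays, 115 probe sets were called, of which 97 were among the 120. Both E14 control arrays were set aside after their values were seen, so a smaller SE of such genes without them is no separate support. The E81 SRF-VP16 arrays had 34.2% and 37.1% of values at or below 0, against 23.4% to 26.5% on the other 6. Array medians ran from 128 to 180 in the -/- class and from 103 to 168 in the SRF-containing class. The beta-actin control probe sets differed in their 5′ to 3′ ratio, a sign of RNA length or of labelling, at 0.17 to 0.33 on the log2 scale in the -/- class and -1.41 to -0.15 in the SRF-containing class (exact permutation p = 0.0286, the smallest that 4 against 4 arrays can give). The same ratio for Gapdh did not separate the classes (exact permutation p = 0.543). Among the control arrays, the E81 SRFdM-VP16 array 1 had a median of 54 and 43.6% of values at or below 0. Its median correlation with the other arrays was the lowest of the series (0.878). On it the 5′ to 3′ ratio was -4.41 for beta-actin and -0.93 for Gapdh on the log2 scale. This array enters every comparison with SRFdM-VP16. The part of these properties in the differences was not tested.

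The ES cell label was checked against 8 ES markers, including Pou5f1, Sox2 and Nanog. Their summed intensity was 33540 to 59940 in the -/- arrays and 49140 to 71180 in the SRF-containing arrays, and 0 of the 8 were called. Sums of 5 feeder-cell markers were 192 to 380 and 194 to 388 in these classes, with Postn at the floor on all 8 arrays. Sums of 6 primitive-endoderm markers were 745 to 1413 and 682 to 911, with Ttr at the floor throughout. Sums of 3 mesoderm markers were 121 to 603 in the -/- arrays and 190 to 520 in the SRF-containing arrays, with Mesp1 at the floor throughout. Sums of 2 trophoblast markers were 0 to 346 and 38 to 125 in these classes, and Tpbpa of that pair was called higher. Sums of 4 neurectoderm markers were 1358 to 3985 in the -/- arrays against 445 to 1167 in the SRF-containing arrays, and Nes alone among them was called. Nes averaged 2458 in the -/- lines and 429 in the SRF-containing lines, so the -/- sums were mostly this 1 gene. Whether a change in the make-up of the cultures has a part in any result was not tested, and in bulk RNA fewer cells of a type and less RNA per cell cannot be told apart.

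The CArG box, the letters that SRF is known to bind, was searched by name in both strands of RefSeq promoter windows of 300 bases (250 before to 50 after the gene start, GRCm38.p6). It consists of CC, 6 letters that are each A or T, and GG, and it reads as the same motif on both strands. Of the 81 genes called higher, 66 had a window and 4 of these held the box (6.06%): Egr2, Myl9, Actc1 and Pip5k1a. Of the 15 called lower, 12 had a window and 0 held it. The box was in the windows of 102 of 5494 tested genes (1.86%) and in 535 of 32851 windows in all (1.63%). A match is a description of the letters and not of binding. Egr2 had several windows with a box, not all with the same letters, and not all of them are shown. The window of Pip5k1a is not shown either. Windows of 4 genes are shown with the box in capitals, of which Acta1 was not called between the classes. They are Egr2 (chr10:67537619-67537918, plus strand, box 72 bases before the gene start), Actc1 (chr2:114052826-114053125, minus strand, 47 bases before), Myl9 (chr2:156775214-156775513, plus strand, 161 bases before) and Acta1 (chr8:123894726-123895025, minus strand, 73 bases before).
Egr2: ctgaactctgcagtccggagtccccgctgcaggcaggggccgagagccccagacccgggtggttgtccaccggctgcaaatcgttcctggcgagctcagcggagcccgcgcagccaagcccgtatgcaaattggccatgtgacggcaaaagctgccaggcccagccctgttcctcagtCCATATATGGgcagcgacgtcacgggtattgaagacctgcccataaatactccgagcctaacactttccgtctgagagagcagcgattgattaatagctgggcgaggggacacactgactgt
Actc1: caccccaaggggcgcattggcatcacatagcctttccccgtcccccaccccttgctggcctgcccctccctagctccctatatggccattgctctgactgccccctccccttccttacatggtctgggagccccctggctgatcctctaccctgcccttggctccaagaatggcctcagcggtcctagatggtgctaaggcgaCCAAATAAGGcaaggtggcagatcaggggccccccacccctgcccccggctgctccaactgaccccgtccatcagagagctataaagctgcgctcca
Myl9: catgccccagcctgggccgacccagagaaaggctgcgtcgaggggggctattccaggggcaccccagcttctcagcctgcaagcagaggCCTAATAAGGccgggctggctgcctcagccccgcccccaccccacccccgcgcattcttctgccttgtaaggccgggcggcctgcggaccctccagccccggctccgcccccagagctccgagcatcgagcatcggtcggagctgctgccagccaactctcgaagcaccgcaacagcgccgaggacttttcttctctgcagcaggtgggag
Acta1: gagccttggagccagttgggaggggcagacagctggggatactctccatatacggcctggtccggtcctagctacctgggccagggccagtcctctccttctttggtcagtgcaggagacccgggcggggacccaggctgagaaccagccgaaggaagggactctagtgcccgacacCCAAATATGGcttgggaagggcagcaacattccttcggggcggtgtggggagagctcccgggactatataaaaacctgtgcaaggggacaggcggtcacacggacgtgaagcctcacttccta

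Among immediate-early genes, Egr2 stood out. Egr2 encodes a zinc-finger transcription factor. It read 4153 and 9654 in E81 and 6962 and 10547 in E100, against 865 and 962 in E99 and 118 and 201 in E14. All -/- arrays lay above all others, and E14 lay lowest. The difference was 4.30 ± 0.27 (adjusted p = 4.2e-06), a 19.7-fold higher level. With SRFdM-VP16 the classes were close, at 572 ± 96.3 in the -/- lines and 519 ± 66.1 in the SRF-containing lines (SD, n = 4 each), and the class difference with SRF-VP16 exceeded that with SRFdM-VP16 by 4.16 ± 0.38 (adjusted p = 0.000229). In E14 the SRF-VP16 arrays were below the SRFdM-VP16 arrays of that line, which read 522 and 427. Egr2 kept its call in all 8 fits that left out 1 SRF-VP16 array, and lost it with the 2 lines as units (adjusted p = 0.351).

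Egr1, the sister gene of Egr2, was at a higher level in every -/- array but missed the threshold. It read 7648 and 16764 in E81 and 17339 and 22881 in E100, against 5351 and 4199 in E99 and 2426 and 2816 in E14, with no overlap. The difference was 2.09 ± 0.49 (95% interval 1.04 to 3.14, adjusted p = 0.0577). With vector the order was the other way round, at 16 and 97 in E81 and 7 in E100, against 709 and 755 in E99 and 283 and 449 in E14 (-2.95 ± 0.55, adjusted p = 0.0472), a call lost without the E14 control arrays numbered 2 (adjusted p = 0.121). Fos, a subunit of the AP-1 factor, was low on all 8 arrays, at -48 to 185 in the -/- class and 64 to 179 in the SRF-containing class, with a difference of -0.19 ± 0.32 (adjusted p = 0.902). Of 23 immediate-early genes measured, 1 was called higher and 0 lower, against 1.19% and 0.22% of all genes. In 4 (Egr1, Egr2, Jund and Ccn2) the -/- arrays lay above all others, against 5.2% of all genes, and the median difference was 0.65. Fosl1 (1.73, adjusted p = 0.136), Ier3 (1.73, 0.577), Junb (1.55, 0.461) and Jun (1.40, 0.343) had values well above 0 that did not pass. Nr4a1 (-0.05, adjusted p = 1) and Klf4 (-0.14, 0.942) lay near 0.

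Genes of striated muscle gave 3 calls among 23 measured, all higher, against 1.19% of all genes called higher. Nppb encodes the B-type natriuretic peptide, a cardiac hormone. Its intensity was 3182 and 6299 in E81 and 12301 and 7286 in E100, against 237 and 310 in E99 and 487 and 335 in E14, so the classes lay far apart. The difference was 4.30 ± 0.31 (adjusted p = 1.02e-05), and it exceeded that with SRFdM-VP16 by 3.60 ± 0.43 (adjusted p = 0.00223). Tnnc1, troponin C of slow and cardiac muscle, read 337 and 2011 in E81 and 1464 and 975 in E100, against 41 and 19 in E99 and 66 and -3 in E14. All but 1 SRF-containing array lay below the floor, so the difference of 4.05 ± 0.38 (adjusted p = 0.00016) depends on the floor. Under both control plasmids Tnnc1 was below the floor on every array. Atp2a1, a calcium pump of the sarcoplasmic reticulum, read 124 to 289 in the -/- class and 32 to 58 in the SRF-containing class, an at least 3.11-fold higher level (1.64 ± 0.24, adjusted p = 0.0045).

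No other gene of the muscle list was called. Of its 23 members, 6 (against 5.2% of all genes) had -/- arrays above all others, and the median was 0.38, against 0.06 for all genes. A difference above 0 was held by 19 of the 23, against 3966 of all 6813 genes. Des, the muscle intermediate filament desmin, had 853 in the -/- lines and 333 in the SRF-containing lines on average (1.39 ± 0.36, adjusted p = 0.0987). The muscle regulators Myod1 (0.70 ± 0.25, adjusted p = 0.237) and Myog (0.62 ± 0.49, 0.688) were not called, and Myog averaged 79.5 in the -/- lines and -6.25 in the SRF-containing lines. Nppa, the atrial peptide of the same family as Nppb, had a difference of 0.99 ± 0.68 (adjusted p = 0.624). Thus both peptide genes had differences above 0, and Nppb alone of the pair was called.

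**Figure D1:**
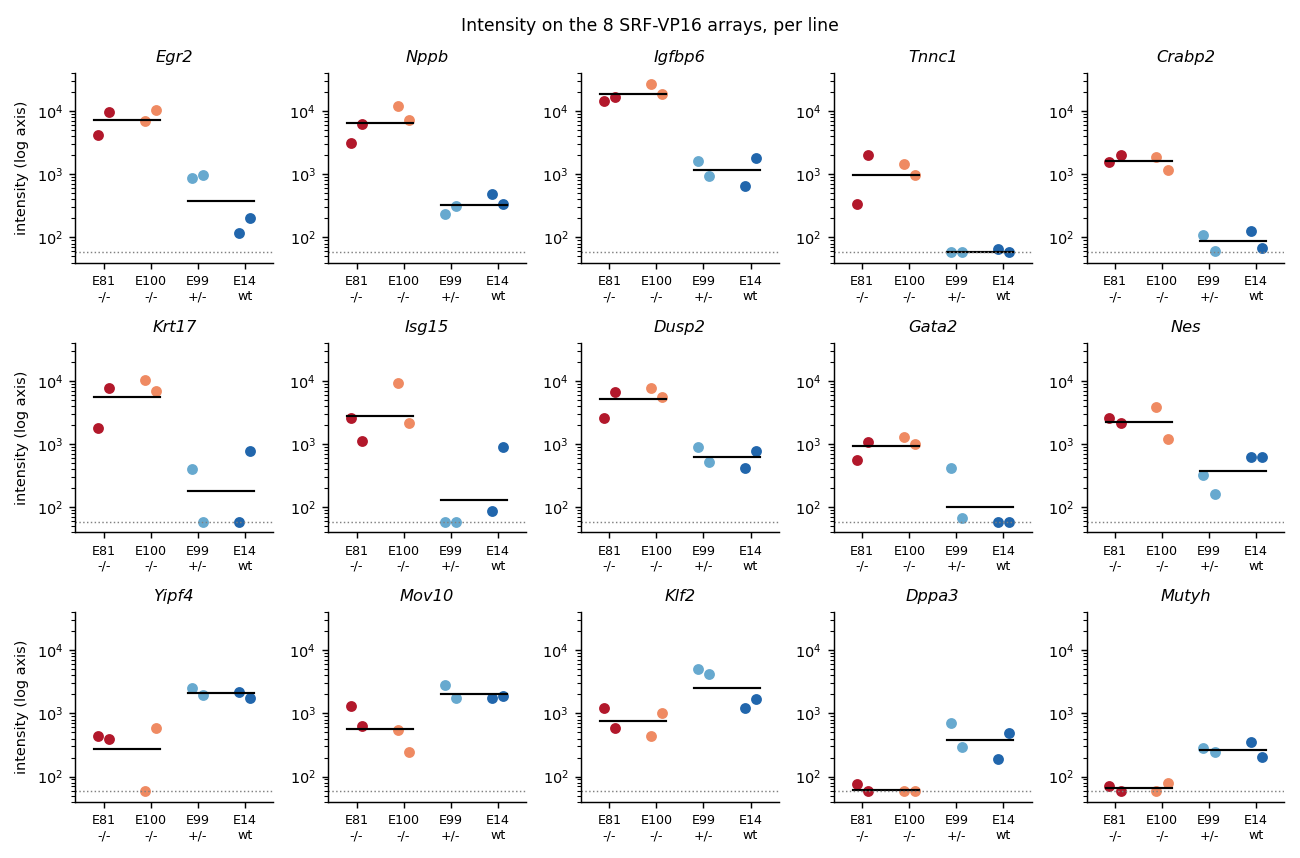
Intensity (log axis, values below the floor of 58 drawn at the dotted line) of 15 genes on the 8 SRF-VP16 arrays, by line, with -/- lines in red and orange and SRF-containing lines in blue. Points are arrays and bars are class means on the log2 scale. Egr2, Nppb and Igfbp6 separate the classes by a wide gap, Klf2 overlaps between the -/- lines and E14, and Dppa3 is at or near the floor in both -/- lines.

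Actin genes and other genes of the actin cytoskeleton lay higher in the -/- lines without overlap in 11 of 33 cases, against 5.2% of all genes. Of the 33, 2 were called higher, against 1.19% of all genes. Actc1, cardiac alpha-actin, read 7105 and 7759 in E81 and 11618 and 6261 in E100, against 2152 and 1456 in E99 and 2193 and 1619 in E14 (2.12 ± 0.36, adjusted p = 0.0121). All -/- arrays were above all others. Its class difference exceeded that with SRFdM-VP16 by 3.44 ± 0.51 (adjusted p = 0.0139), and by 3.45 ± 0.59 (adjusted p = 0.0508) without both E14 control arrays numbered 2. This probe set can hybridise to related transcripts, and a second one of the gene had 1.11 (adjusted p = 0.203). Myl9, the regulatory light chain of smooth-muscle myosin, read 356 and 748 in E81 and 2047 and 539 in E100, against 28 and 35 in E99 and 308 and 66 in E14 (3.02 ± 0.61, adjusted p = 0.0285). Both E99 arrays were below the floor, so this size depends on the floor, and the call ended with the floor at the 60th percentile. The lowest -/- array and the highest SRF-containing array were close, and the call held in 3 of 8 fits that left out 1 array, those without the E14 array 1, the E81 array 1 or the E100 array 2, with an adjusted p of 0.112 without the E14 array 2. The call of Actc1 held in all 8 such fits and ended when each array was divided by its median (2.04, adjusted p = 0.0618).

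Skeletal alpha-actin, Acta1, read 8013 and 7355 in E81 and 20188 and 8834 in E100, against 890 and 607 in E99 and 3770 and 3498 in E14. The classes did not overlap, with E99 below E14, and the difference was 2.63 ± 0.81 (adjusted p = 0.175). Without both E14 control arrays numbered 2, which enter the shared estimate of spread, it was 2.63 ± 0.29. Those arrays were set aside for high values of genes of this kind, so the smaller SE is no separate support. Smooth-muscle actin, Acta2, read 9860 and 11179 in E81 and 10432 and 13779 in E100, against 1492 and 2484 in E99 and 10591 and 2574 in E14. The E14 array 1 lay among the -/- arrays, and the difference was 1.82 ± 1.40 (95% interval -1.19 to 4.83, adjusted p = 0.676). Tagln, the smooth-muscle actin-binding protein transgelin, read 23513 and 24940 in E81 and 29157 and 34217 in E100, against 6899 and 5651 in E99 and 16237 and 5805 in E14. The classes did not overlap, and the difference of 1.83 ± 1.00 was not called (adjusted p = 0.503), nor without the 2 E14 control arrays (1.83 ± 0.42, adjusted p = 0.072).

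Cytoplasmic actins differed little between the classes with SRF-VP16. Actg1, gamma-actin, read 34211 and 30227 in E81 and 31974 and 41452 in E100, against 24584 and 24829 in E99 and 25143 and 23026 in E14, a narrow gap without overlap (0.49 ± 0.14, adjusted p = 0.144). With SRFdM-VP16 the order was the other way round, at 9182 ± 1410 in the -/- lines and 26320 ± 3770 in the SRF-containing lines (SD, n = 4 each; -1.52 ± 0.14, adjusted p = 0.000299). With vector it was -1.01 ± 0.16 (adjusted p = 0.0137), and -0.96 (adjusted p = 0.0524) without the E14 control arrays numbered 2. The class difference with SRF-VP16 exceeded that with SRFdM-VP16 by 2.01 ± 0.20 (adjusted p = 0.00045). Actb, beta-actin, overlapped between the classes, at 4075 to 11987 in the -/- arrays and 4900 to 8276 in the SRF-containing arrays (0.43 ± 0.36, 95% interval -0.35 to 1.22, adjusted p = 0.716).

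Other genes of this list are the actin-linked adaptors and motors. Vcl, the focal-adhesion protein vinculin, read 7044 and 9991 in E81 and 11138 and 8870 in E100, against 1887 and 1829 in E99 and 3206 and 1155 in E14. The gap between the classes was wide, yet the difference of 2.27 ± 0.60 was not called (adjusted p = 0.0993), and a second probe set gave 1.22 (adjusted p = 0.0508). Csrp1, a LIM-domain protein of smooth muscle, had 2.49 ± 0.78 (adjusted p = 0.182) and Cnn1, calponin, had 2.20 ± 0.82 (adjusted p = 0.284), both without overlap. Fhl2, a LIM-domain cofactor, had 1.48 ± 0.47 (adjusted p = 0.184), and Myh9, a non-muscle myosin heavy chain, had 1.13 ± 0.30 (adjusted p = 0.103). At the low end stood Cnn2 (-1.64 ± 0.63, adjusted p = 0.297) and Tpm2 (-1.52 ± 0.77, adjusted p = 0.461), both with overlap. The median of the 33 genes was 0.49 with SRF-VP16, -0.24 with SRFdM-VP16 and -0.40 with vector, against 0.06, 0.10 and 0.14 for all genes. Without both E14 control arrays, a setting chosen after seeing the data, Acta1 had a smaller SE.

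**Figure D2:**
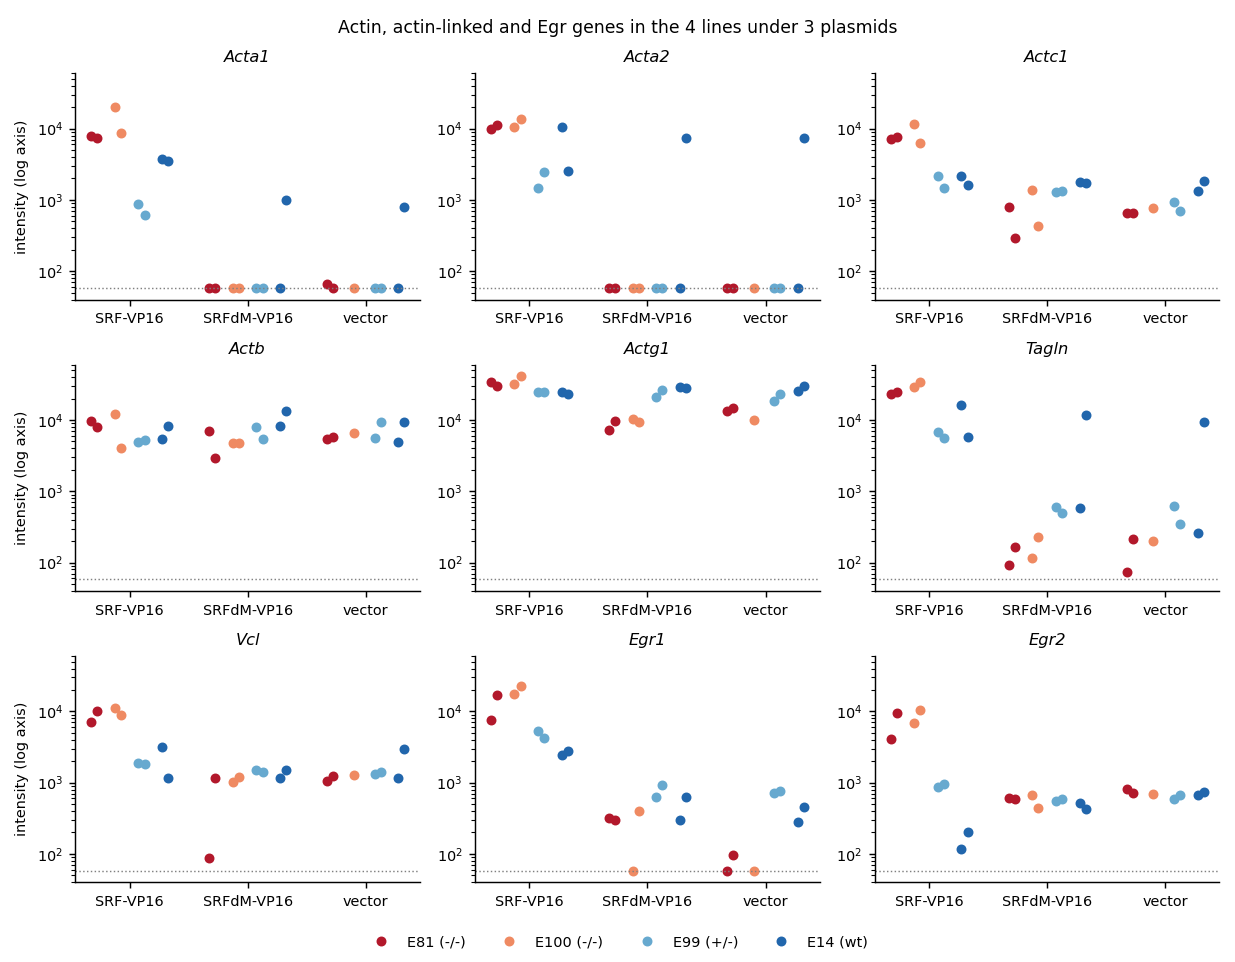
Intensity (log axis, values below the floor of 58 drawn at the dotted line) of 9 genes in the 4 lines under SRF-VP16, SRFdM-VP16 and vector, with 1 point per array. Within a plasmid the order is E81, E100, E99 and E14. Actg1 is lower in the -/- lines under both control plasmids and not with SRF-VP16, and the E14 control arrays numbered 2 stand out for Acta2 at 7302 and 7463.

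Secreted proteins were among the brightest genes called. Igfbp6 binds insulin-like growth factor 2. It read 14409 and 16991 in E81 and 27179 and 18535 in E100, against 1621 and 936 in E99 and 659 and 1785 in E14, a gap without overlap (4.02 ± 0.38, adjusted p = 0.00016). It lay below the floor on all SRFdM-VP16 arrays, so the excess of 4.02 ± 0.54 over the class difference with that plasmid (adjusted p = 0.00613) also depends on the floor. Both classes thus held more Igfbp6 with SRF-VP16 than with SRFdM-VP16, at 8.34 ± 0.38 in the -/- lines (adjusted p = 8.09e-08) and 4.32 ± 0.38 in the SRF-containing lines (adjusted p = 0.000169). Htra1, a secreted protease that cleaves such binding proteins, read 6210 and 5733 in E81 and 8331 and 5932 in E100, against 1516 and 900 in E99 and 1376 and 2006 in E14 (2.22 ± 0.38, adjusted p = 0.0123). The groups were far apart, and the call was lost only without the E99 array 2 among the 8 (adjusted p = 0.053).

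Of 10 genes of the insulin-like growth factor axis, these 2 were called higher and 0 lower, against 1.19% and 0.22% of all genes. The median of the 10 was 0.40. Igf2 itself was above in every -/- array, at 7306 to 15151 in the -/- lines and 3031 to 5664 in the SRF-containing lines, with a difference of 1.17 ± 1.21 (95% interval -1.44 to 3.78, adjusted p = 0.787), and a second probe set of Igf2 had -0.11 (adjusted p = 0.65). Timp1, an inhibitor of matrix metalloproteinases, read 6738 and 8030 in E81 and 15174 and 6355 in E100, against 3414 and 3122 in E99 and 4141 and 2621 in E14 (1.37 ± 0.23, adjusted p = 0.0121). It was the only one of 17 fibroblast and matrix genes called, against 1.19% of all genes called higher, and their median was 0.27. F3, tissue factor, the cell-surface starter of coagulation, had 2705 to 10439 in the -/- lines and 373 to 1599 in the SRF-containing lines, with 2.88 ± 0.86 (adjusted p = 0.159).

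Keratins and other intermediate filaments gave 2 calls among 14, both higher, against 1.19% of all genes called higher. Their median was 0.69. Krt20, a keratin of simple epithelia, read 646 and 1306 in E81 and 1700 and 1355 in E100, against 85 and 134 in E99 and 249 and 135 in E14 (3.08 ± 0.51, adjusted p = 0.0106). Nes, the progenitor-cell filament nestin, read 2587 and 2141 in E81 and 3889 and 1216 in E100, against 319 and 162 in E99 and 625 and 611 in E14 (2.59 ± 0.53, adjusted p = 0.0318). Neither overlapped, but the call of Nes held in 1 of 8 fits that left out 1 array, the one without the E100 array 2. Krt7 had 1.80 ± 0.41 (adjusted p = 0.0534), while the pair of simple epithelia Krt8 (0.51 ± 0.57, adjusted p = 0.817) and Krt18 (0.34 ± 0.89, adjusted p = 0.96) overlapped. Outside the list, Krt17, a keratin of stressed and basal epithelia, had the highest difference of all named genes.

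Krt17 read 1776 and 7698 in E81 and 10416 and 6838 in E100, against 394 and -235 in E99 and -90 and 768 in E14. The classes did not overlap, while the SRF-containing arrays ran from below the floor to 768, so the size (4.97 ± 0.75, adjusted p = 0.00524) depends on the floor. Its probe set can hybridise to related transcripts, and a second one had 3.51 (adjusted p = 0.049). Crct1, a gene of the epidermal differentiation complex, read 1131 and 5398 in E81 and 1715 and 5880 in E100, against 122 and 259 in E99 and 212 and 115 in E14 (4.07 ± 0.65, adjusted p = 0.0081). It was low in every SRF-containing array, and its probe set can also hybridise to related transcripts.

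Annexins bind membranes in a calcium-dependent way, and S100 proteins are their partners. Of 14 measured, Anxa4 (1.59 ± 0.35, adjusted p = 0.0466) and Anxa8 (2.59 ± 0.58, adjusted p = 0.0488) were called higher, against 1.19% of all genes. Each of these calls held in 1 of 8 fits that left out 1 array, for Anxa4 the one without the E81 array 1 and for Anxa8 the one without the E100 array 2, and neither held without the 2 E14 control arrays (adjusted p = 0.0827 for Anxa4 and 0.0622 for Anxa8). Anxa1 read 10103 and 6682 in E81 and 18457 and 9273 in E100, against 1831 and 1722 in E99 and 4361 and 2627 in E14, with no overlap. Its difference of 2.08 ± 1.14 was not called (adjusted p = 0.507), and without those 2 control arrays it was 2.08 ± 0.40. These arrays were set aside after their values were seen, so the smaller SE is no separate support. S100a6 (1.67 ± 0.65, adjusted p = 0.301) and Anxa2 (1.56 ± 0.81, 0.473) did not overlap and did not pass.

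Among adhesion genes, Itgb1, the integrin beta-1 chain, read 12196 and 15056 in E81 and 14329 and 11588 in E100, against 6166 and 5719 in E99 and 10358 and 7701 in E14. The highest E14 array came near the lowest -/- array, and the difference was 0.86 ± 0.19 (adjusted p = 0.0454), a call that held in 2 of 8 fits that left out 1 array, those without the E14 array 1 and without the E100 array 2. It also ended under both other scalings, after quantile normalization (0.70, adjusted p = 0.0571) and after division by the array median (0.77, adjusted p = 0.268). A second probe set of Itgb1 had 0.74 and was not called (adjusted p = 0.368). Itgb1 was the 1 gene called of 23, against 1.19% of all genes called higher. The median of the 23 was 0.69, against 0.06 for all genes. A difference above 0 was held by 21 of them, against 3966 of all 6813 genes. The integrins Itga6 (0.98 ± 0.30, adjusted p = 0.175) and Itga3 (0.75 ± 0.41, 0.502) and the adaptor Pxn (1.23 ± 0.42, 0.217) did not overlap and were not called. Itgb5 stood at the other end, with -1.90 ± 0.70 (adjusted p = 0.277).

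Further genes with a high difference belong to no single group. Crabp2 carries retinoic acid in the cell. It read 1559 and 2037 in E81 and 1905 and 1169 in E100, against 109 and 60 in E99 and 128 and 69 in E14, with a wide gap (4.23 ± 0.32, adjusted p = 1.7e-05). Isg15, a ubiquitin-like protein of the interferon response, read 2533 and 1111 in E81 and 9358 and 2124 in E100, against 10 and -131 in E99 and 88 and 890 in E14 (4.42 ± 0.59, adjusted p = 0.00229). The E14 array 2 came close to the lowest -/- array, both E99 arrays were at the floor, and with E14 alone as the SRF-containing side the gene was not called. Isg15 was the 1 gene called of 17 in its list, whose median was 0.06, against 1.19% of all genes called higher. Mx1 (0.00, adjusted p = 1) and Irf7 (-0.68, adjusted p = 0.6), genes induced by interferon, were not called.

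Gata2, a transcription factor of blood stem cells, read 551 and 1083 in E81 and 1296 and 986 in E100, against 418 and 68 in E99 and -33 and -5 in E14 (3.24 ± 0.61, adjusted p = 0.0202). Both E14 arrays were below the floor, so the size of this difference depends on the floor. One E99 array came near the lowest -/- array, and the call was lost without the E14 array 2, without the E99 array 2 or without the E81 array 2 (adjusted p up to 0.0722). Dusp2, a nuclear phosphatase of MAP kinases, read 2582 and 6537 in E81 and 7553 and 5553 in E100, against 886 and 521 in E99 and 412 and 775 in E14 (3.06 ± 0.57, adjusted p = 0.0202). The gap was wide, but the call was lost without the E14 array 1, without the E99 array 2 or without the E81 array 2 (adjusted p up to 0.0788). Slc23a3, of a family of vitamin C and nucleobase transporters, had 1200 ± 574 in the -/- lines and 126 ± 48.8 in the SRF-containing lines (SD, n = 4 each; 3.23 ± 0.40, adjusted p = 0.00143). Hspa5, the main chaperone of the endoplasmic reticulum, had 8196 ± 1740 and 3456 ± 742 in the same classes (1.25 ± 0.26, adjusted p = 0.0374). It was the 1 gene called of 18 chaperone and stress genes, against 1.19% of all genes called higher. That call held in 3 of 8 fits that left out 1 array, those without the E14 array 1, the E81 array 1 or the E100 array 2, and not without the 2 E14 control arrays (adjusted p = 0.0683).

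Some called genes outside these groups, picked after their values were seen, had a difference without overlap. Cavin1 shapes the membrane pits called caveolae, and averaged 7710 in the -/- lines and 1800 in the SRF-containing lines (2.07 ± 0.25, adjusted p = 0.00106). Nrap, an actin-anchoring protein of striated muscle, averaged 2206 and 575 in the same classes (1.92 ± 0.39, adjusted p = 0.0291). Tapbp, which loads peptides on major histocompatibility molecules, averaged 4123 and 1032 (1.94 ± 0.30, adjusted p = 0.00608). Each of these 3 genes had a difference with SRFdM-VP16 between -0.08 and 0.09. Pla2g7, a secreted phospholipase, averaged 4780 in the -/- lines and 700.0 in the SRF-containing lines (2.87 ± 0.43, adjusted p = 0.00512), and also had 1.84 with SRFdM-VP16 and 1.90 with vector, so a gap was measured under all 3 plasmids.

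**Figure D3:**
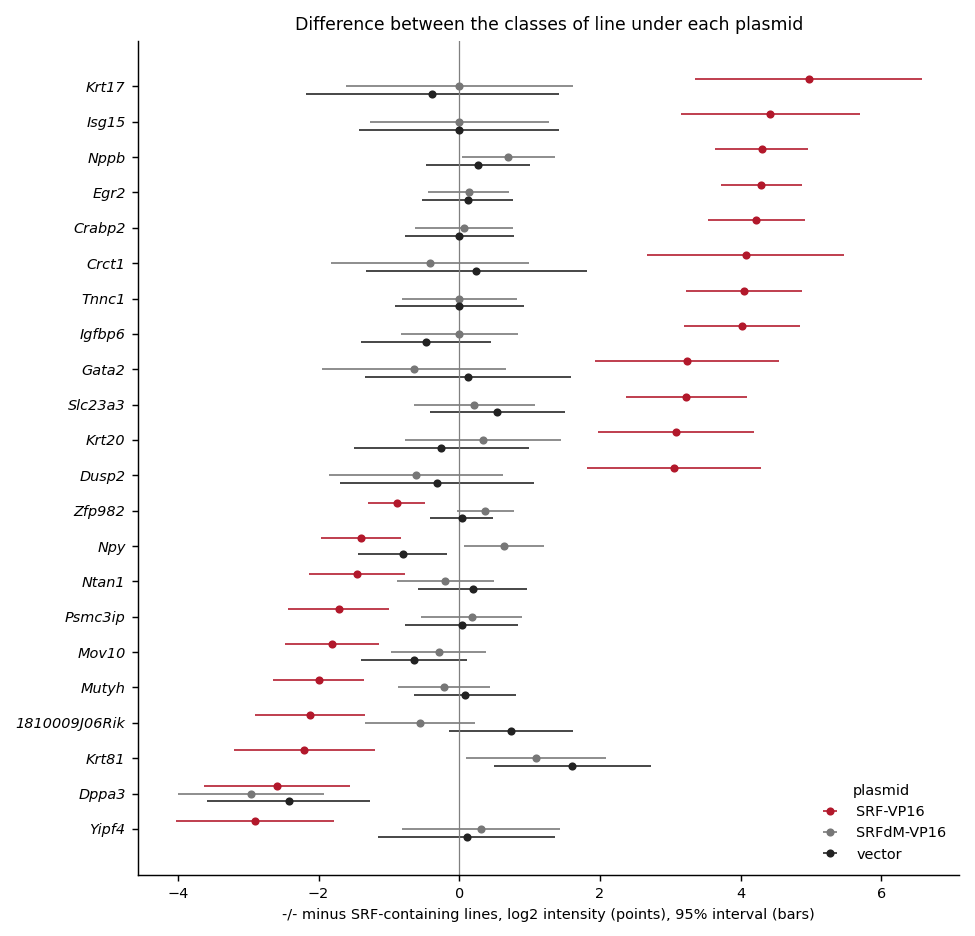
Difference between the classes (-/- minus SRF-containing lines, log2 intensity) under SRF-VP16, SRFdM-VP16 and vector for the 22 called genes without overlap that had the largest rises and falls. Points are differences and bars their 95% intervals from the fit over 23 arrays. For most genes the difference with SRF-VP16 stands apart from both control plasmids, while Dppa3 lies near -2.42 to -2.96 under all 3. The genes were picked by their SRF-VP16 difference, so this gap follows in part from the choice.

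Falls were fewer. Yipf4, a membrane protein of the Golgi apparatus, read 436 and 392 in E81 and -125 and 596 in E100, against 2519 and 1969 in E99 and 2165 and 1751 in E14. All -/- arrays were far below all others (-2.91 ± 0.52, adjusted p = 0.0161), with the call lost without the E99 array 1 or the E81 array 2 (adjusted p up to 0.0645). With SRFdM-VP16 Yipf4 had 2088 ± 692 in the -/- lines and 1692 ± 578 in the SRF-containing lines (SD, n = 4 each), so the classes overlapped there. Mov10, an RNA helicase, read 1309 and 639 in E81 and 539 and 243 in E100, against 2817 and 1746 in E99 and 1781 and 1888 in E14 (-1.81 ± 0.31, adjusted p = 0.0123). The call was lost without the E99 array 1, the highest of the 8 (adjusted p = 0.0598). Mutyh, a DNA repair glycosylase, read 28 to 79 in the -/- lines and 201 to 353 in the SRF-containing lines (-2.002 ± 0.303, adjusted p = 0.00524), with no overlap. On 2 of the -/- arrays Mutyh was at the floor, so the size of its fall depends on the floor.

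Other falls lay near the floor. Krt81, a hair keratin, was below the floor on all 4 -/- arrays and read 89 to 505 in the SRF-containing arrays, an at least 4.61-fold lower level in the -/- lines (adjusted p = 0.0368). Under SRFdM-VP16 the -/- lines had 348 ± 29.9 and the SRF-containing lines 198 ± 191 (SD, n = 4 each), the other way round. The call of Krt81 held in 1 of 8 fits that left out 1 array, the one without the E14 array 2. The gene 1810009J06Rik was also below the floor on all -/- arrays, and read 194 to 319 in the SRF-containing arrays (at least 4.35-fold lower, adjusted p = 0.0121). Psmc3ip, a factor of meiotic recombination, read -11 to 97 in the -/- lines and 130 to 267 in the SRF-containing lines (-1.72 ± 0.33, adjusted p = 0.0234). Its call held in 2 of 8 such fits, those without the E14 array 2 and without the E100 array 1.

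Npy, neuropeptide Y, read 20 to 73 in the -/- lines and 90 to 271 in the SRF-containing lines (-1.39 ± 0.26, adjusted p = 0.0202), and its call was lost without the E99 array 1, the E81 array 2 or the E100 array 1. Ntan1, an amidase of the N-degron pathway, had -1.46 ± 0.32 (adjusted p = 0.0454). That call held in 0 of 8 fits that left out 1 array, nor without the 2 E14 control arrays (adjusted p = 0.0596), and a second probe set of the gene had a difference of 0.00 (adjusted p = 1). Zfp982, a zinc-finger protein, read 2746 to 4362 in the -/- lines and 4811 to 8337 in the SRF-containing lines (-0.89 ± 0.19, adjusted p = 0.0358). It was the brightest gene that fell, its probe set can hybridise to related transcripts, and its call held in 3 of 8 such fits, those without the E14 array 1, the E81 array 1 or the E100 array 1, and not without the 2 E14 control arrays (adjusted p = 0.0677).

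Pluripotency genes gave 0 calls higher and 2 lower among 32 measured, against 1.19% and 0.22% of all genes, and their median was -0.34. Scaling moved these calls, as quantile normalization gave 4 lower (median -0.46) and division by the array median gave 0 (median -0.43). Klf2, a factor of the naive pluripotent state, read 1241 and 591 in E81 and 442 and 1012 in E100, against 4976 and 4198 in E99 and 1223 and 1709 in E14. The -/- arrays overlapped with E14 and lay far below E99 (-1.76 ± 0.35, adjusted p = 0.0279). Against E14 alone the difference was -0.93 (adjusted p = 0.515) and against E99 alone -2.59 (adjusted p = 0.0166). The call held in 3 of 8 fits that left out 1 array, those without the E14 array 1, the E81 array 1 or the E100 array 2. With SRFdM-VP16 Klf2 had 4138 ± 682 in the -/- lines and 3390 ± 1170 in the SRF-containing lines (SD, n = 4 each). Dppa3, a maternal factor of early embryos, read 75 and -129 in E81 and -32 and -56 in E100, against 707 and 292 in E99 and 193 and 484 in E14 (-2.59 ± 0.48, adjusted p = 0.0201). It was low in the -/- lines under the other plasmids too, at -2.96 ± 0.48 with SRFdM-VP16 (adjusted p = 0.0592) and -2.42 ± 0.54 with vector (adjusted p = 0.105), and its call was lost without the E14 array 2, the E99 array 1 or the E81 array 2.

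The core factors Pou5f1 (-0.38 ± 0.27, 95% interval -0.96 to 0.20, adjusted p = 0.64), Sox2 (0.25 ± 0.24, 0.756) and Nanog (0.06 ± 0.38, 1) were not called. Pou5f1 was at 5994 to 22064 in the -/- lines and 13560 to 22541 in the SRF-containing lines, and the lowest value was the E100 array 2. Nr0b1 (-1.17 ± 0.37, adjusted p = 0.184), Zfp42 (-0.88 ± 0.42, 0.411) and Gdf3 (-0.63 ± 0.33, 0.472), 3 genes of undifferentiated ES cells, had every -/- array below every SRF-containing array and did not pass. In the list of 32, the -/- arrays lay below all others for 4 genes and above for 0, against 1.23% and 5.2% of all genes. The list's median was -0.08 in E81 and -0.56 in E100 when each was set against the SRF-containing lines. The 34 cell-cycle genes had the same order, with a median of -0.27 in all, 0.06 in E81 and -0.58 in E100. By limma 0 of them were called and 3 had an unadjusted p under 0.05. Of all 6813 genes, 634 had such a p with a higher -/- level and 246 with a lower one. The cell-cycle inhibitor Cdkn1a was above in every -/- array (1.29 ± 0.46, adjusted p = 0.259).

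Other lists held few calls. Of 16 mesoderm genes and 23 primitive-endoderm genes 0 were called, with medians of 0.00 and 0.11, and 1 and 6 of them had an unadjusted p under 0.05. Of 10 neurectoderm genes, Nes was the 1 called, and of 11 trophoblast genes, Tpbpa was the 1 called, against 1.19% of all genes called higher. Imprinted genes (21), apoptosis and p53 genes (21), glycolysis and hypoxia genes (22), cholesterol-synthesis genes (15), X-linked genes (7) and housekeeping genes (11) each had 0 calls, with medians of 0.46, 0.42, 0.20, 0.17, 0.18 and 0.01. The numbers of their members with an unadjusted p under 0.05 were 4, 5, 4, 1, 1 and 2. Of all 6813 genes, 634 had an unadjusted limma p under 0.05 with a higher -/- level and 246 with a lower one. Across quantile normalization and division by the array median, list medians kept their sign except those of the mesoderm, chaperone and housekeeping genes, which lay between -0.07 and 0.03 in all 3 scalings.

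**Figure D4:**
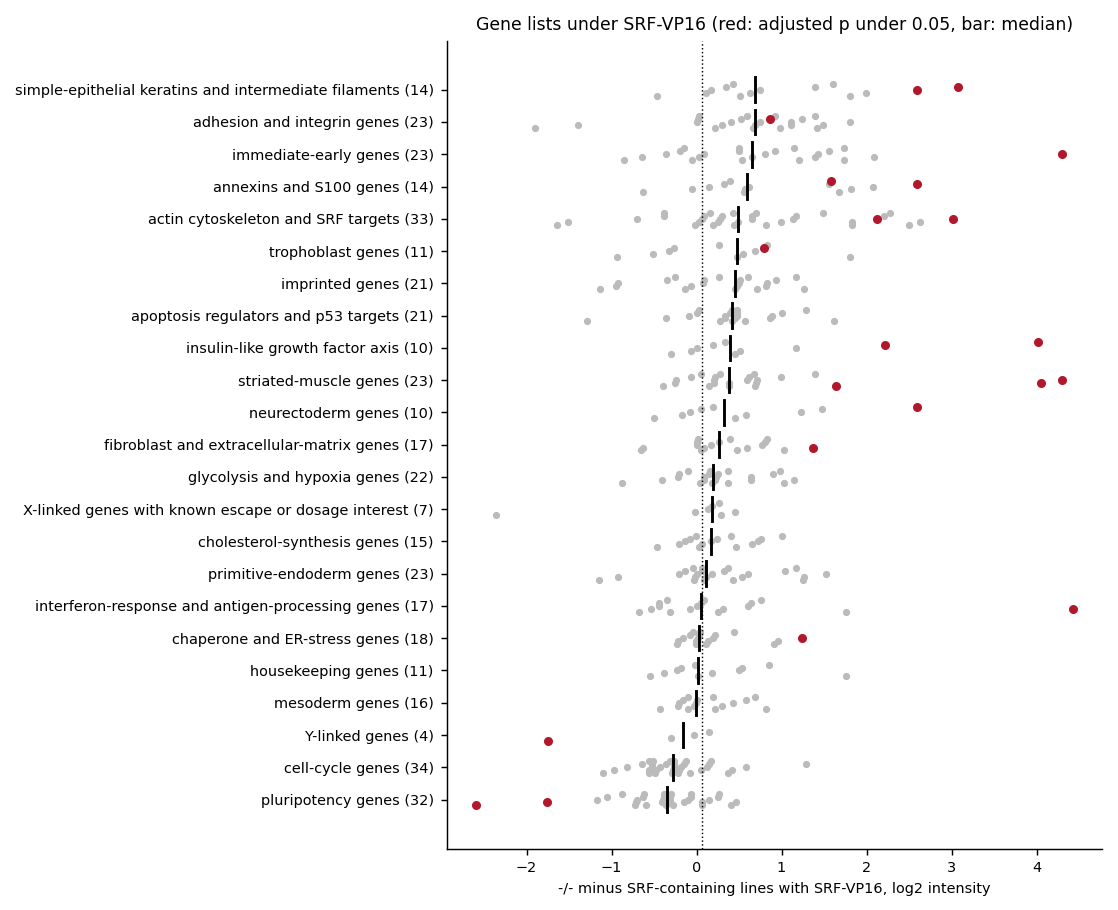
Difference between the classes with SRF-VP16 (-/- minus SRF-containing lines, log2 intensity) for each measured member of 23 gene lists, with the number of members in parentheses. Red points passed the test, grey points did not, short bars are list medians and the dotted line is the median of all genes at 0.06. Pluripotency and cell-cycle genes have the lowest medians, -0.34 and -0.27.

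The same comparison without the activator gave few calls. With SRFdM-VP16 4 of 9643 probe sets (0.0415%) were called between the classes and with vector 25 (0.259%), with 479 and 581 at an unadjusted p under 0.05. Both comparisons use the same lines, and their counts moved with the arrays used, as a fit without the E81 SRFdM-VP16 array 2 called 69. Of the 101 probe sets called higher with SRF-VP16, 0 were called with SRFdM-VP16 and 1 with vector, and their median difference was 1.49 with SRF-VP16, 0.00 with SRFdM-VP16 and 0.01 with vector. A 2-fold difference in the same direction was present for 3 of them with SRFdM-VP16 and for 2 with vector. For the 19 called lower the medians were -1.54, -0.04 and 0.03, and 2 had a 2-fold fall under both control plasmids. Set beside SRFdM-VP16 in its own class, which shares the SRF-VP16 arrays, the median change of the 101 was 1.49 in the -/- lines and 0.06 in the SRF-containing lines. The 101 and the 19 were picked by their difference with SRF-VP16, so all these contrasts of medians follow in part from that choice. Some, as Tnnc1 and Igfbp6, lay below the floor on all SRFdM-VP16 arrays, where a difference of 0.00 tells nothing about the classes.

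The difference between the classes itself differed between SRF-VP16 and SRFdM-VP16 for 13 probe sets (0.135%), all 13 in the direction of a higher -/- level with SRF-VP16, and 697 had an unadjusted p under 0.05. Of the 101 probe sets called higher, 11 were among them. A gene name was held by 12 of the 13, among them Egr2 (4.16), Crabp2 (4.16), Tnnc1 (4.05), Igfbp6 (4.02) and Nppb (3.60), followed by Actc1 (3.44), Actg1 (2.01) and Scrg1 (1.21). Each of these 8 genes except Actc1 was also called without both E14 control arrays numbered 2. Tagln had 4.91 ± 1.41 (adjusted p = 0.277) and, without those arrays, 3.83 ± 0.63. Acta1 had 3.66 ± 1.15 (adjusted p = 0.333) and, without them, 2.63 ± 0.43. Leaving them out was chosen after seeing the data, so the smaller SE of Tagln and Acta1 is no separate support. Left out singly, arrays moved this count between 11 and 71, and the direction was then mixed in most fits, with 33 higher and 34 lower without the E81 SRFdM-VP16 array 2, 16 and 17 without the E14 SRF-VP16 array 2 and 15 and 14 without the E100 SRFdM-VP16 array 2. With the arrays of the comparison alone it was 21 higher and 12 lower.

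The 2 -/- lines did not reach the same levels everywhere. E81 and E100 differed for 44 probe sets (0.456%), 5 higher and 39 lower in E81, and 838 had an unadjusted p under 0.05. That imbalance depended on scaling and on single arrays, since quantile normalization gave 7 higher and 15 lower, the fit without the E81 array 2 gave 38 and 30, and the fit without the E100 array 1 gave 62 and 92. Among the 101 probe sets called higher, the E81 mean lay above the E100 mean in 26, and 21 were called between the 2 lines. For 16 of the 101, 1 of the -/- lines was at the floor. The median difference of the 101 from the SRF-containing lines was 1.25 in E81 and 1.81 in E100. Ngef, a guanine exchange factor of neurons, read 9 and -49 in E81 and 479 and 256 in E100, and E99 and E14 ran from -70 to 12. E100 alone was above the floor, and E81 minus E100 was -2.59 ± 0.29 (adjusted p = 0.000662). Its call between the classes (1.30 ± 0.21, adjusted p = 0.0081) thus came from E100.

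Several genes divided the -/- lines in this way. Tpbpa, a trophoblast protein, read -3 and 11 in E81 and 153 and 235 in E100, against 69 and -38 in E99 and -199 and -98 in E14 (E81 minus E100 -1.71 ± 0.16, adjusted p = 9.23e-05). Its call as higher in the -/- class (0.79 ± 0.11, adjusted p = 0.00315) came from E100. Emp2, an epithelial membrane protein, read -202 and -12 in E81 and 309 and 459 in E100 (-2.70 ± 0.40, adjusted p = 0.00569), and it was also above the floor in E100 and below it in E81 under both control plasmids. Plcd1, a phospholipase C, showed the same order under all 3 plasmids, with -2.71 ± 0.48 with SRF-VP16 (adjusted p = 0.0259). Dmwd had -556 and -1470 in E81 and 495 and 371 in E100 (-2.89 ± 0.55, adjusted p = 0.0361). The 2 E81 values were the only negative ones, the other 6 SRF-VP16 arrays reading 296 to 634, and with SRFdM-VP16 E81 read 204 and 418. Ndfip2, an adaptor of ubiquitin ligases, was at the threshold (-2.62 ± 0.53, adjusted p = 0.04996). Of these, Dmwd and Ndfip2 lost their calls in each of the 4 fits that left out 1 array of E81 or E100, and Plcd1 in 3 of the 4, all but the one without the E100 array 2.

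Of the 5 probe sets higher in E81, 4 have a gene named here. Scrg1, a small secreted protein, read 247 and 236 in E81 and -39 and -197 in E100, and all 4 SRF-containing arrays were below the floor, so E81 supplied its call between the classes (1.03 ± 0.12, adjusted p = 0.000836, E81 minus E100 2.06 ± 0.17, adjusted p = 5.3e-05). Slc2a8, a glucose transporter, read 1113 and 1138 in E81 and 388 and 273 in E100, against 1174 and 1068 in E99 and 973 and 627 in E14 (1.79 ± 0.32, adjusted p = 0.0259). Here E100 was low and E81 lay with E99, and the call held in 1 of 4 fits that left out 1 array, the one without the E100 array 1. Tac2, a tachykinin precursor, had 92 and 130 in E81 and -55 and -99 in E100 (0.92 ± 0.13, adjusted p = 0.0027). Alas2, the erythroid enzyme of heme synthesis, had 106 and 111 in E81 and -109 and 0 in E100 (0.90 ± 0.08, adjusted p = 8.67e-05). Both genes were below the floor on all SRF-containing arrays and reached at most 130 in E81.

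**Figure D5:**
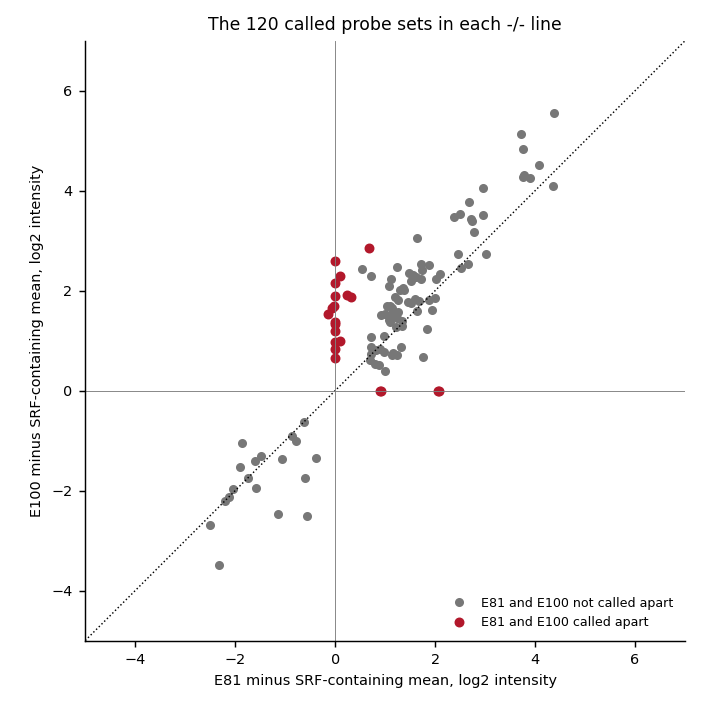
The 120 probe sets called between the classes with SRF-VP16, plotted as the difference from the SRF-containing mean (log2 intensity) in E81 (x axis) and in E100 (y axis), with equality as the dotted line. Red points are probe sets also called between E81 and E100. Several points lie on a zero line, where 1 of the -/- lines was at the floor like the SRF-containing arrays, and the median of the 101 called higher is 1.25 in E81 and 1.81 in E100.

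Between the SRF-containing lines, E99 and E14 differed for 3 probe sets (0.0311%), 2 higher and 1 lower in E99, and 315 had an unadjusted p under 0.05. Egr2 was higher in E99 (E99 minus E14 2.57 ± 0.38, adjusted p = 0.0463), so E81 and E100 lay highest, E99 next and E14 lowest. The +/- and wild-type labels each rest on a single line, so genotype and line cannot be told apart here. Against E14 alone the -/- lines had a difference of 5.58 (adjusted p = 1.97e-06), and against E99 alone 3.01 (adjusted p = 0.00097). The E99 call of Egr2 held in 1 of 4 fits that left out 1 array, the one without the E14 array 2. Ppfibp2, a liprin, read 138 and 141 in E99 and -130 and 25 in E14, and was below the floor in both -/- lines (1.27 ± 0.15, adjusted p = 0.00779), so E99 supplied its call between the classes as well (-0.63 ± 0.10, adjusted p = 0.00965). Eif2s3y, a translation factor on the Y chromosome, read 49 and -5 in E99 and 877 and 484 in E14, and -36 to 56 in the -/- lines (E99 minus E14 -3.49 ± 0.53, adjusted p = 0.0463). E14 alone was above the floor, and with the other plasmids E14 read 574 to 1432. Its fall in the -/- class (-1.74 ± 0.37, adjusted p = 0.0395) was 0.00 against E99 alone and -3.49 against E14 alone (adjusted p = 0.00494). Both calls of Eif2s3y held in the fit without the E14 array 2, and in no other fit that left out 1 array. The probe sets of Eif2s3y, Actb, Anxa1, Atp2a1, Alas2, Cnn1, Igf2 and Itgb1 can also hybridise to related transcripts.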

How the data were processed

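RNA of 23 samples was hybridised to 1-colour Affymetrix arrays. The deposited table holds 1 intensity per probe set and array on a linear scale, with negative values. How the authors computed and scaled it is not given in the sources used here. Precision is limited by how many arrays each group has. Groups were taken from the labels.

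The table lists 12502 probe sets, among them 66 controls that were dropped from the tests. Values below 58, the 40th percentile of all others, were set to 58 and log2 was taken. A probe set was kept when above the 40th percentile of its array on at least 2 arrays, which left 9643 and removed 2793. Gene names came from the platform annotation and RefSeq names (10141 probe sets with 1 symbol, 362 with several, 1933 with none), and the probe set with the highest mean stood for its gene. 

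Differences were tested with limma 3.58.1 in R 4.3.3, with 12 group means over 23 arrays, a mean-variance trend, 11 residual degrees of freedom, two-sided tests and Benjamini-Hochberg adjustment over all 9643. The code was tested on simulated data. With 4 arrays against 4, a single value was tested by exact permutation. A fold against a class wholly below the floor is a lower bound from the floor. Means ± SD are over arrays on the linear scale.

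Named genes are the 12 largest rises and falls past an adjusted p of 0.05 with 1 symbol and no overlap (10 falls qualified), from every list the 4 members, or fewer, lowest in adjusted p, the 5 largest in each direction of the other comparisons, and a set of 20 genes. Genes named beside these were chosen after their values were seen. Members and lists were chosen with earlier results of these data known. The targeted transcript is not reported here.

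Alternatives changed the scaling, floor, filter, log transform, trend, arrays in the fit, unit of replication, choice of lines, and each array in turn. Same-numbered arrays of different lines did not deviate together (correlations of -0.314 to 0.285), so the numbers were not taken as pairs.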

Additional observations from a re-analysis of the deposited data

Results flagged for a closer look

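Among 126 groups of 4 arrays examined, 8 had 1 array far from the other 3, and chance gives such a gap in about 1 group in 20. In the -/- class with SRF-VP16, E100 array 1 read 20188 for Acta1, against 7355 to 8834 on the other 3, and 6356 for Cnn1, against 2248 to 2725. In the SRF-containing class, E14 array 1 read 10591 for Acta2 (1492 to 2574 on the other 3), 16237 for Tagln (5651 to 6899) and 308 for Myl9 (28 to 66). The E14 array 2 read 8276 for Actb (4900 to 5376) and 130 for Psmc3ip (248 to 267), and E99 array 1 read 2817 for Mov10 (1746 to 1888).

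For 8 named genes the signed class difference was further towards the -/- side with SRF-VP16 than with SRFdM-VP16, by a test of that excess on the log2 scale. For Actg1 the gap was not larger in size, since the -/- lines were lower with SRFdM-VP16 and not called apart with SRF-VP16. The excess was 4.16 for Egr2, 4.16 for Crabp2, 4.05 for Tnnc1, 4.02 for Igfbp6, 3.60 for Nppb, 3.44 for Actc1, 2.01 for Actg1 and 1.21 for Scrg1.

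The 2 -/- lines differed with SRF-VP16 in the tested E81 minus E100 difference of 10 named genes. It was positive for Scrg1 (2.06), Slc2a8 (1.79), Tac2 (0.92) and Alas2 (0.90). It was negative for Dmwd (-2.89), Plcd1 (-2.71), Emp2 (-2.70), Ndfip2 (-2.62), Ngef (-2.59) and Tpbpa (-1.71).

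Between the SRF-containing lines, E99 minus E14 was 2.57 for Egr2, 1.27 for Ppfibp2 and -3.49 for Eif2s3y.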

How the results depend on the processing

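Counts are of probe sets called by limma. Under SRF-VP16, the 120 calls between the classes became 72 with division by the array median, 74 with a filter at the 60th percentile, 42 with an inverse hyperbolic sine in place of log2, 14 with the 8 arrays of the comparison alone, 73 with line as a random block (consensus correlation 0.00804) and 0 with the means of 2 lines against 2 (1159 at an unadjusted p under 0.05). With 1 line on a side they were 44 against E14 alone, 64 against E99 alone and 25 with E81 alone as the -/- side. Leaving out 1 array gave 69 (without E99 array 1) to 184 (without E100 array 2), with 78 without E14 array 2. Other settings stayed within 1.5 times, from 90 when calls with any overlap of the 4 and 4 arrays were dropped, a setting chosen after seeing the data, to 155 after quantile normalization (91 higher, 64 lower).

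With SRFdM-VP16 the 4 calls became 9 with quantile normalization (2 higher, 7 lower), 11 with division (4 higher, 7 lower) and 8 without a filter, and 3 to 69 without 1 array: 69 without E81 array 2, 23 without E100 array 2, 21 without E14 array 1, 11 and 10 without array 1 of E100 and E81, and 7 without E99 array 1. With vector the 25 became 1, 2 and 107 under the same 3 settings, and 36 to 54 without 1 array, with no value without the single E100 array. It was 45 without the E14 control arrays numbered 2, a setting chosen after seeing the data. Quantile normalization put the median of all probe sets at 0 there, against 0.133 with vector and 0.101 with SRFdM-VP16 before.

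The 13 calls of the excess over SRFdM-VP16 became 21 with quantile normalization, 33 without a filter, 38 with the floor at the 60th percentile, 6 with the inverse hyperbolic sine, 33 with its arrays alone, 22 against vector, 37 against the mean of both controls, and 11 to 71 without 1 array (71 without the E100 SRF-VP16 array 2). The 44 calls of E81 against E100 became 22 with quantile normalization (7 higher, 15 lower), 28 with division (8 higher, 20 lower), after which the median over all tested probe sets stood at 0.258, and 44 to 154 without 1 array (154 without E100 array 1). The 3 calls of E99 against E14 became 5 and 6 under these scalings (1 higher in each) and, with a replicate block, 1, and 6 to 30 without 1 array (30 without E14 array 2).

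With the array number as a replicate block the other counts were 116 (105 shared with the 120), 3, 19, 12 and 40. The class difference with SRF-VP16 changed sign for 9 named genes in at least 1 setting, of which Tpbpa alone was called before the change. With E81 alone as the -/- side it was -0.063 for Tpbpa, 0.27 for Slc2a8, -1.10 for Plcd1, -0.15 for Emp2 and 0.13 for Pou5f1. With E100 alone it was 1.17 for Ndfip2, 0.52 for Fos and 0.0083 for Dmwd. Against E14 alone it was 0.38 for Fos, -0.26 for Krt18 and -0.058 for Plcd1. Plcd1 had -0.44 with the inverse hyperbolic sine and Ndfip2 had 0.12, a call, with the floor at the 60th percentile. Without 1 array, Ndfip2 ran from -0.39 to 0.11 (without E14 array 1, and 0.020 without E99 array 2), Plcd1 from -0.14 (without E99 array 2) to 0.65 and Pou5f1 from -0.78 to 0.018 (without E100 array 2). Of 40 named genes called between the classes, 0 kept the call in all 24 settings. Egr2 and Nppb kept it in 23, all but the means of lines, and of 21 not called 9 were called in none. Division by the array median ended, beside Actc1 and Itgb1, the calls of Klf2, Dppa3, Anxa8, Hspa5, Zfp982 and Ntan1, among others. Causes of these changes were not tested.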
